A study of Mus musculus with 24 samples.

Results

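The 35 imprinted genes described here, H19 and Igf2 among them, were taken by name from a list of known mouse imprinted genes. All 35 matched an identifier in a count table of 43432 gene identifiers from mouse hearts. Of these, 27 had enough counts for the tests below, and the other 8 are described by their counts. Total RNA was sequenced after removal of ribosomal RNA in 24 heart samples of strain C57BL/6, 4 in each of 6 groups. These were hearts of mice given 8 weeks of wheel running, of sedentary mice, of mice operated on 2 weeks earlier to constrict the transverse aorta (TAC), which raises the pressure against which the left ventricle pumps, of a sham-operated group beside them, of mice 8 weeks after TAC, and of a second sham-operated group beside those. By the labels, the 2-week groups stand for left ventricular hypertrophy (LVH) and the 8-week groups for heart failure (HF). They give no time after surgery for the shams, no age and no sex, so the shams are called here the 2-week-cohort and 8-week-cohort shams. Nothing in the labels says whether the samples of a group came from separate mice. Each sample is called a heart here, and p-values measure the spread between these samples.

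An imprinted gene is read from the copy of only 1 parent, and the choice is set by DNA methylation laid down in the egg or the sperm. Imprinted genes sit in clusters, in which a control region often drives a long noncoding RNA from the copy that keeps its protein-coding neighbours silent. Many act on growth before birth, the paternally read ones as promoters of growth and the maternally read ones as brakes, and several are shut down in muscle and heart after birth. H19 is a maternally read long noncoding RNA, and its neighbour Igf2, read from the paternal copy, encodes a growth factor of the insulin family. Both draw on the same enhancers. Because all mice were of the same inbred strain, the parental copies could not be told apart, and each value is the sum of both.

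The sequences below show the start regions of genes at 3 loci and the microRNA that H19 holds, so that the loci can be seen beside their values. They are credited to RefSeq on build GRCm38.p6, and no value or test below was computed from them. Of the 35 genes, 29 had at least 1 entry in the table of promoter windows, each of 300 bases (250 before a transcript's start and 50 after it). The genes Peg3 and Usp29 are read in opposite directions from a shared start region, so that their windows overlap by 263 bases. Capitals in the Peg3 window (chr7:6730370-6730669, minus strand) mark GGGGCCCC, the site known for Plagl1, a zinc finger protein that is itself on the list. The motif was searched as these letters on both strands, on which it reads the same, and was found in 2 of 46 windows of the listed genes, those of Peg3 and Usp29. These hits are 1 site, which lies where the windows overlap. Of all 32851 windows, among which overlaps were likewise not removed, 1.08% hold it.
Peg3: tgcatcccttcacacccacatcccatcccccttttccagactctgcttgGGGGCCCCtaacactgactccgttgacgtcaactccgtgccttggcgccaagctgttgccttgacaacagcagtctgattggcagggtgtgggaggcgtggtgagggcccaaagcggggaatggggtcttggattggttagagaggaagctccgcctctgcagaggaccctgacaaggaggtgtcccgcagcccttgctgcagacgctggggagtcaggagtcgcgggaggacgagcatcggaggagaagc
The next windows are those of Igf2 (chr7:142658755-142659054, minus strand), Meg3 (chr12:109540746-109541045, plus strand) and Rian (chr12:109603695-109603994, plus strand), chosen as the window with the most CGs of each gene, with capitals on each CG, the dinucleotide at which imprints are written. Igf2 and Meg3 carry 24 and 13 CGs and Rian carries 0, against a median of 10.5 over the windows of the listed genes and 7 over all windows.
Igf2: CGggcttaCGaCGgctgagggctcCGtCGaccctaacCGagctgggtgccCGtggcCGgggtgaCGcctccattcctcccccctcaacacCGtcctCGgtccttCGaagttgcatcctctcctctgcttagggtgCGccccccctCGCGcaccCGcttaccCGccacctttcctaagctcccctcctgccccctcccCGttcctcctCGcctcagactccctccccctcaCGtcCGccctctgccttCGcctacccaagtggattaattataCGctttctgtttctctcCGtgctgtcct
Meg3: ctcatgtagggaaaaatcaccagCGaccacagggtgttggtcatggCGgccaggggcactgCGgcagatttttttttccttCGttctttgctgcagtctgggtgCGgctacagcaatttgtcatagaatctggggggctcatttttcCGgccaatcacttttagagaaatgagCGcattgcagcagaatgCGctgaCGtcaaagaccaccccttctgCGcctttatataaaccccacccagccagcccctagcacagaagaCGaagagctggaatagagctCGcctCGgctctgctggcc
Rian: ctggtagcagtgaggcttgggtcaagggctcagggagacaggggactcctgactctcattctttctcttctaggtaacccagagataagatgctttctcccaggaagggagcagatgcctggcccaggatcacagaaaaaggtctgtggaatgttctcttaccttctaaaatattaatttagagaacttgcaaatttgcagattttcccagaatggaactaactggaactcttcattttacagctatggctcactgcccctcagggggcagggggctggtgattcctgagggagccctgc
H19 is also the precursor of a microRNA. Capitals in its hairpin (Mir675, chr7:142577064-142577147, minus strand) mark the mature arms, and those in each arm mark the seed, bases 2 to 8, which pairs with target transcripts.
Mir675: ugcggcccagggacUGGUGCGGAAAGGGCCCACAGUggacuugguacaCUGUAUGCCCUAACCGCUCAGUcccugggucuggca
mmu-miR-675-5p: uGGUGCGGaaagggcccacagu
mmu-miR-675-3p: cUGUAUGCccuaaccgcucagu
The hairpin lies within 3 of 7 annotated H19 transcripts. Mir675 had its own entry in the count table, separate from that of H19, with 0 counts in all 24 libraries. H19 itself had 66 to 231 counts per library.

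Library totals ranged from 16802939 to 39512101 counts, of which mitochondrially encoded genes took 50.7% to 73.6% and left 5949640 to 12932067 for all other genes. The mitochondrial share was 50.7% to 58.4% 2 weeks after TAC, against 59.8% to 64.5% in its shams, and 52.7% to 57.6% 8 weeks after TAC, against 61.3% to 67.0% in its shams. Levels are given as normalized counts (CPM), which are read counts scaled to a common library size with TMM factors over all 24 libraries. Differences between groups are log2 fold changes with their standard error (SE) from edgeR's quasi-likelihood test, and a gene was called where the Benjamini-Hochberg adjusted p was under 0.05. No 2 replicate libraries agreed within sampling noise.

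Expression of the imprinted genes in the heart spanned a wide range. Per kilobase of annotated exon, the mean level over the 6 groups was highest for Gnas, which encodes the stimulatory G protein alpha subunit that links adrenergic receptors to adenylyl cyclase, at 16.4 CPM per kb. Igf2r, the receptor that clears Igf2 from the cell surface, followed at 15.6 CPM per kb, and it exceeded Gnas in 3 of the 6 groups (17.0 against 12.7 CPM per kb 2 weeks after TAC, 16.9 against 13.7 at 8 weeks after TAC, and 15.7 against 14.6 in the 2-week-cohort shams). Next was Grb10, an adaptor that restrains insulin and IGF1 receptor signalling, at 6.35 CPM per kb. H19 stood at 2.34 and Igf2 at 1.47 CPM per kb. At the low end of the tested genes were Rtl1, Zim1 and Mirg, at 0.0949, 0.0812 and 0.0697 CPM per kb.

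**Figure D1:**
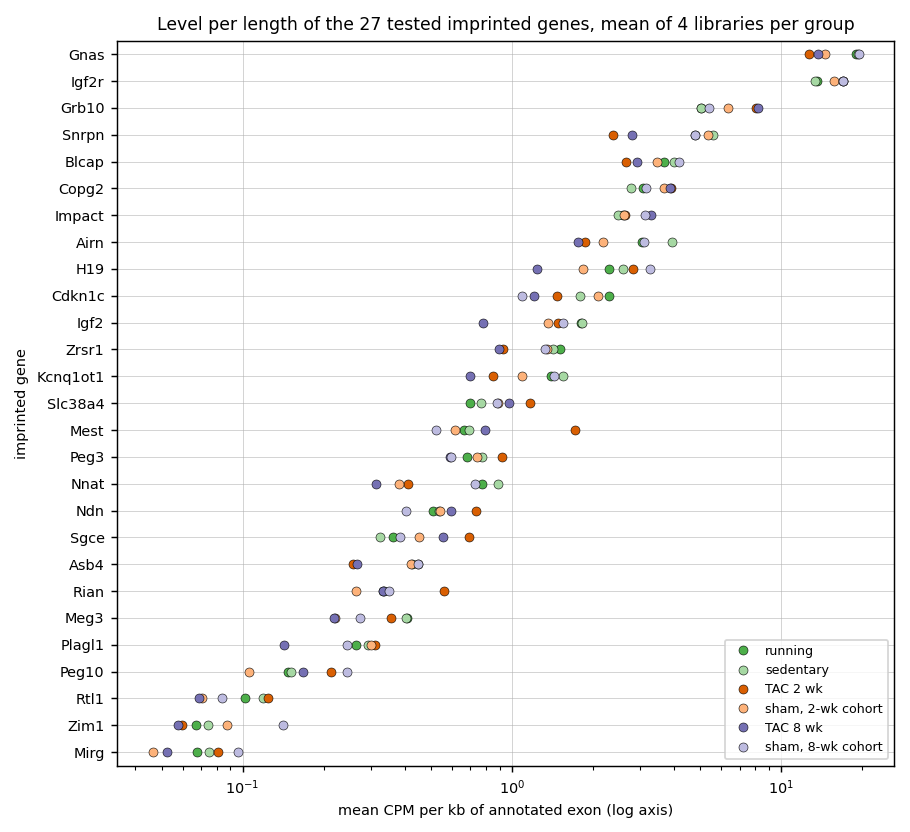
Mean level of each of the 27 tested imprinted genes per kilobase of annotated exon (CPM per kb, log axis), 1 point per group of 4 libraries. Gnas and Igf2r lie highest, and Rtl1, Zim1 and Mirg lowest; for Mest the TAC 2 weeks point lies apart to the right, and for H19 and Igf2 the TAC 8 weeks point lies to the left.

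The 8 genes below the count limit were Dlk1, Dio3, Phlda2, Slc22a18, Usp29, Snurf, Magel2 and Zdbf2. Magel2 had 0 counts in all 24 libraries, which allows a level of up to 0.0837 to 0.183 CPM, depending on the library (3 counts; counting error only). Dlk1, a Notch-like ligand best known from fetal tissue, had 12 counts in all, and Phlda2, a brake on placental growth, had 1. Slc22a18, a transporter gene beside Phlda2, had 68 and Zdbf2, a zinc finger gene, had 137. Usp29 had 4 counts in all, whereas Peg3, which faces it across the shared window shown above, had 5619. Dio3, the enzyme that inactivates thyroid hormone, had 9, 8, 2 and 7 counts in the 4 TAC 2 weeks libraries, against 1, 0, 1 and 1 in the 2-week-cohort shams. Its counts were 4, 2, 3 and 1 in the TAC 8 weeks libraries, against 0, 0, 0 and 1 in the 8-week-cohort shams. The running hearts had no Dio3 count and the sedentary hearts had 1. Each 2-week library with TAC thus had more Dio3 counts than any of its shams, and at 8 weeks the lowest TAC library equalled the highest sham. In a fit with no filter on low counts, the adjusted p for Dio3 was 0.0101 at 2 weeks and 0.13 at 8 weeks (edgeR).

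At 2 weeks after TAC, 7 of the 27 tested imprinted genes were higher and 5 lower than in shams, and 8 weeks after TAC 4 were higher and 12 lower. Mest, Sgce and Grb10 were higher and Snrpn, Asb4, Blcap and Zrsr1 lower at both times. H19 was called at both times in opposite directions. Across all genes tested, TAC called 33.2% at 2 weeks (17.1% higher, 16.1% lower) and 29.6% at 8 weeks (14.9% higher, 14.7% lower). The 7 higher genes at 2 weeks thus stand beside a background of 17.1%, and the 12 lower genes at 8 weeks beside one of 14.7%. The median log2 fold change over the 27 genes was 0.12 at 2 weeks and −0.51 at 8 weeks, and those over all genes tested were −0.0021 and 0.0035. Of 13542 genes tested at both times, 1191 were higher at both, 1155 were lower at both, and 5, H19 among them, were higher at 2 weeks and lower at 8 weeks. At an unadjusted p under 0.05 there were 17 of the 27 at each time, beside 42.6% and 40.6% of all genes. The 4 TAC and 4 sham values did not overlap for 12 of the 27 genes at 2 weeks and for 14 at 8 weeks, where the shares over all genes were 32.8% and 29.4%.

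**Figure D2:**
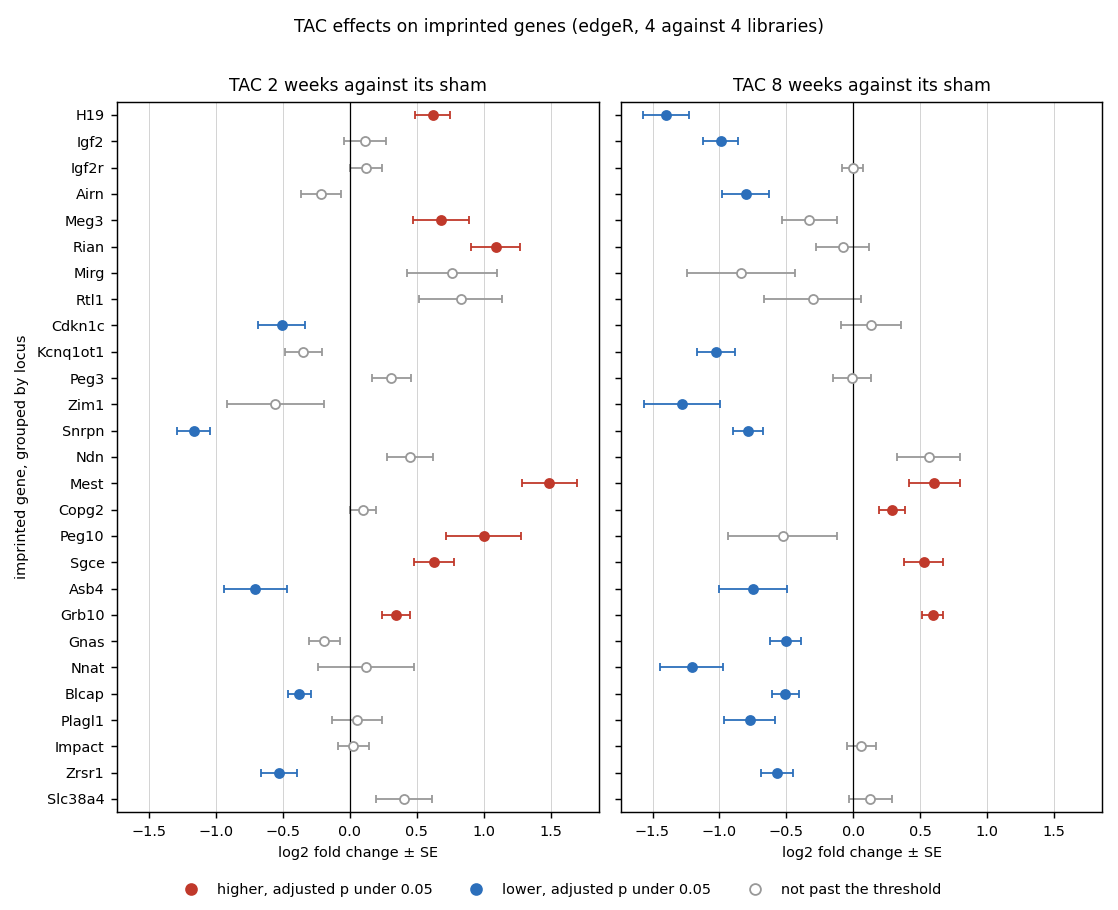
Log2 fold change of each of the 27 tested imprinted genes, with its SE as whiskers, 2 weeks (left) and 8 weeks (right) after TAC against the shams of the same cohort (edgeR, 4 against 4 libraries). Filled points passed the threshold; H19 lies at 0.62 on the left and at −1.40 on the right.

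These directions are relative to the median gene. Scaled to library totals alone, without TMM factors, the median of all genes shifted to 0.41 at 2 weeks and 0.33 at 8 weeks. Under that scaling 16 imprinted genes were higher and 1 lower at 2 weeks, and 8 were higher and 7 lower at 8 weeks (edgeR). All genes then split 6995 higher to 614 lower at 2 weeks and 6075 to 568 at 8 weeks. At 2 weeks Igf2, Igf2r, Peg3, Slc38a4, Impact, Copg2, Ndn, Rtl1 and Mirg were called higher under library totals but not under TMM. Cdkn1c, Asb4, Zrsr1 and Blcap lost their calls as lower there. At 8 weeks Slc38a4, Impact, Ndn and Igf2r were called higher under library totals only, and Gnas, Blcap, Plagl1, Asb4 and Zrsr1 lost their calls as lower. H19 kept its direction and its call at both times under each scaling tried.

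At the H19 and Igf2 locus on chromosome 7, TAC went with more H19 at 2 weeks and with less of both transcripts at 8 weeks. H19 (ENSMUSG00000000031) had 7.03, 5.79, 8.43 and 6.42 CPM in the TAC 2 weeks hearts, against 4.72, 4.41, 4.08 and 4.85 CPM in their shams. At 8 weeks it had 4.12, 2.55, 2.95 and 2.56 CPM in TAC hearts, against 8.95, 6.45, 7.19 and 9.46 CPM in shams. Each TAC library lay above each sham library at 2 weeks and below each of them at 8 weeks. The log2 fold change was 0.62 (SE 0.13, edgeR adjusted p = 0.00248) at 2 weeks, 1.53-fold higher, and −1.40 (SE 0.172, adjusted p = 5.8e-05) at 8 weeks, 2.64-fold lower. Igf2 (ENSMUSG00000048583) had 10.1, 7.68, 9.09 and 7.09 CPM in the TAC 2 weeks hearts, against 9.09, 5.97, 6.76 and 9.45 CPM in their shams. At 8 weeks Igf2 had 4.55, 5.33, 3.98 and 4.02 CPM in TAC hearts, against 9.93, 9.46, 7.54 and 8.56 CPM in shams. The Igf2 values of the groups were interleaved at 2 weeks, with a log2 fold change of 0.11 (SE 0.156, edgeR adjusted p = 0.621). Scaled to library totals alone, Igf2 was called higher at 2 weeks (0.54, edgeR adjusted p = 0.0107). At 8 weeks every TAC library was below every sham library, and the change of −0.99 (SE 0.13, adjusted p = 9.5e-05) was 1.99-fold.

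The difference between the TAC effects was itself tested, as the effect at 8 weeks minus that at 2 weeks in 1 fit of the 16 surgical libraries. Of the 27 imprinted genes, H19 and Igf2 were called, both lower, where the background was 1.36% of 14463 genes (0.933% higher, 0.422% lower). H19 had the smallest p of all genes tested, with a log2 difference of −2.01 (SE 0.223, edgeR adjusted p = 0.000245). Both the shams and the TAC hearts enter this difference. Between the cohorts H19 differed by 0.82 in shams and by −1.18 in TAC hearts, as given below. The call of H19 held whichever single library was left out. The count of calls was less steady, at 4 of the 27 (654 of all genes) without 2-week-cohort sham replicate 1 and 1 of the 27 (22 of all genes) without sham replicate 2 of that cohort. Igf2 had a difference of −1.10 (SE 0.214, edgeR adjusted p = 0.0219) and missed the threshold without TAC 8 weeks replicate 4 (adjusted p = 0.0523) or without 2-week-cohort sham replicate 2 (0.0549). A further 12 of the 27 had an unadjusted p under 0.05, against 19.1% of all genes, and the largest of these differences, for Mirg, Peg10 and Nnat, were −1.60, −1.52 and −1.32 (adjusted p = 0.121, 0.13 and 0.114).

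**Figure D3:**
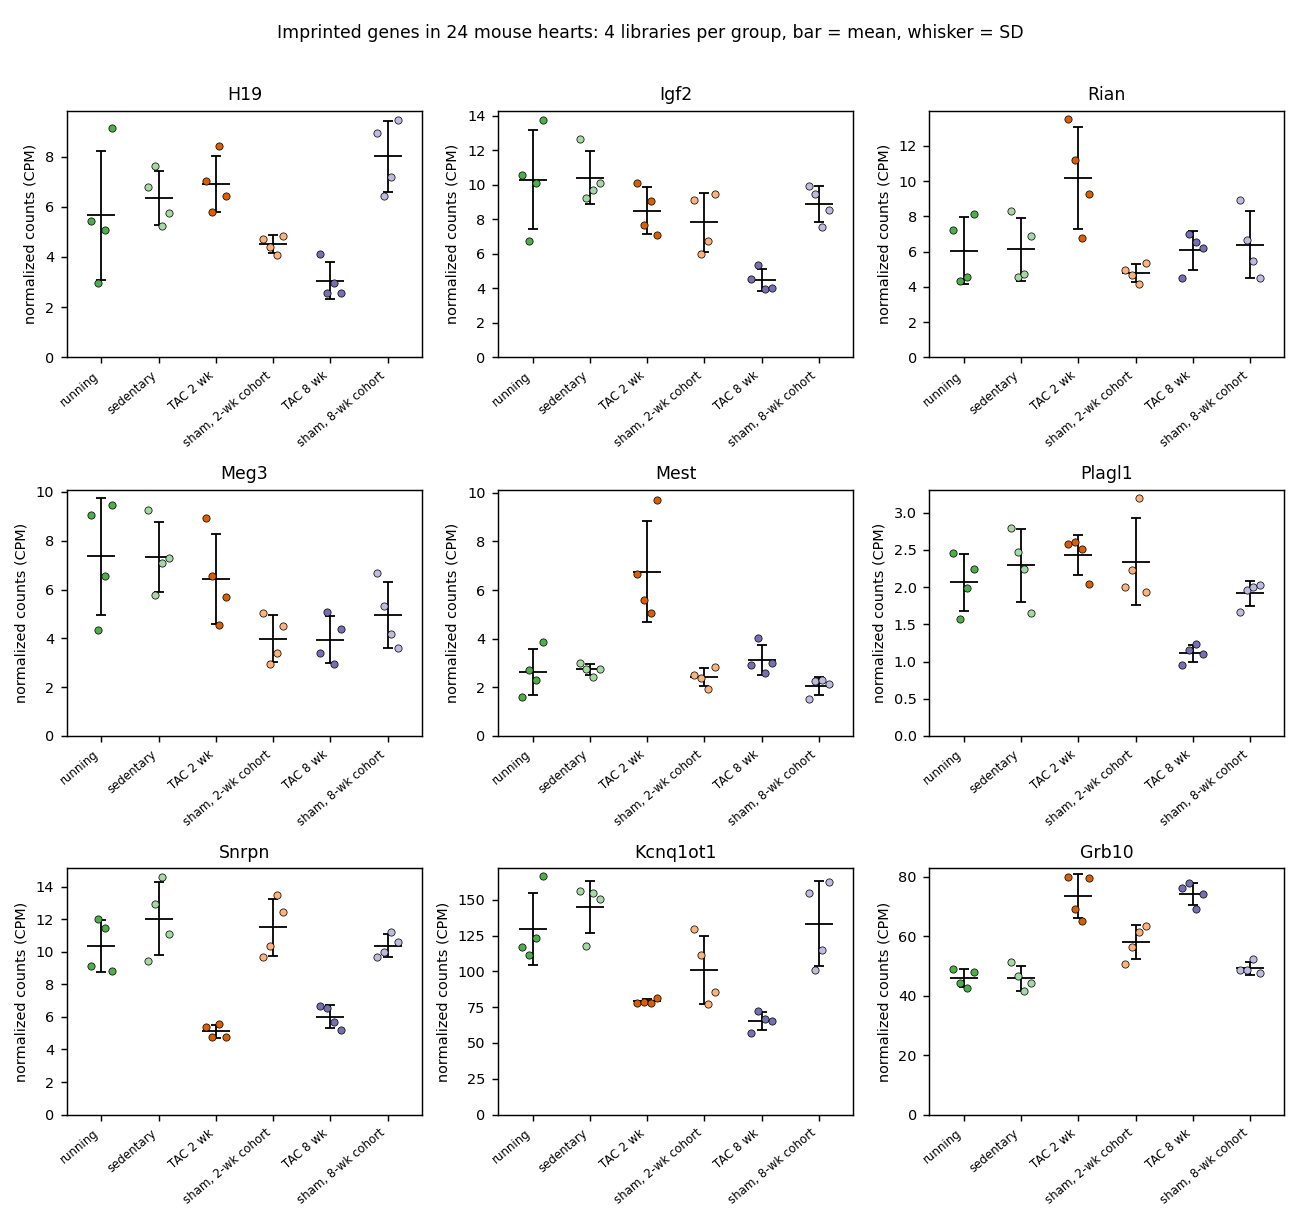
Normalized counts (CPM) of 9 imprinted genes in each of the 24 libraries, by group, with the mean as a bar and the SD as whiskers (n = 4). By group mean, TAC 8 weeks hearts lie lowest for H19 (libraries at 2.55 to 4.12 CPM) and for Igf2, and TAC 2 weeks hearts lie highest for Rian and Mest. Single libraries of other groups overlap them for H19 and Rian.

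The proportion of H19 to Igf2 within a heart needs no scaling between libraries. No comparison of this proportion passed the threshold, which a comparison could not reach on its own with these group sizes. The mean log2 ratio of H19 to Igf2 counts was −0.30 ± 0.20 at 2 weeks after TAC and −0.77 ± 0.25 in its shams (SD, n = 4 each; difference 0.47; two-sided exact permutation test, p = 0.0571 and, adjusted over 5 comparisons, 0.143). It was −0.57 ± 0.39 at 8 weeks after TAC and −0.16 ± 0.29 in its shams (exact permutation p = 0.171, adjusted p = 0.285). The smallest p that 4 against 4 libraries can give is 0.0286. After adjustment over 5 comparisons, a comparison with that p could pass only if others came equally low. The lack of calls therefore does not show that the ratio was unchanged.

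Igf2r and Airn share a locus on chromosome 17, where the noncoding Airn runs against Igf2r and silences it on the paternal copy outside the brain. Igf2r ranged from 144.7 to 172.2 CPM 8 weeks after TAC and from 155.1 to 163.0 CPM in shams, with a log2 fold change of −0.01 (SE 0.0801, edgeR adjusted p = 0.967). Airn had 6.42, 8.57, 4.80 and 5.55 CPM in TAC 8 weeks hearts, against 12.9, 10.2, 8.69 and 12.5 CPM in shams. All 4 TAC values were below all 4 sham values, and Airn fell by 0.81 (SE 0.177, edgeR adjusted p = 0.00508). At 2 weeks neither gene passed, with 0.12 for Igf2r and −0.22 for Airn (adjusted p = 0.475 and 0.305). The strand setting of the counting is not given in the sources used here, so reads from the stretch that Airn shares with Igf2r could not be assigned to either strand. The same holds for Kcnq1ot1 within Kcnq1, Nnat within Blcap, Rtl1 and its antisense transcripts, Mest and Copg2, and Zrsr1 within Commd1.

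The Dlk1 to Dio3 cluster on chromosome 12 holds the maternally read noncoding RNAs Meg3, Rian and Mirg and the paternally read genes Dlk1, Rtl1 and Dio3. Meg3 and Rian were higher 2 weeks after TAC than in the shams of that cohort. Meg3 averaged 6.43 CPM in TAC 2 weeks hearts, 7.34 CPM in sedentary hearts and 7.35 CPM in running hearts. For Rian these means were 10.2, 6.12 and 6.06 CPM. TAC hearts and unoperated hearts were not compared by a test. Rian, the host of many small nucleolar RNAs, had 13.5, 11.2, 6.75 and 9.27 CPM in TAC 2 weeks hearts, against 4.98, 4.69, 4.15 and 5.34 CPM in shams. The groups did not overlap, with TAC replicate 3 nearest to the shams, and the change was 1.09 (SE 0.182, edgeR adjusted p = 0.000629), 2.13-fold. For Meg3 the values were 8.91, 6.54, 4.56 and 5.69 CPM in TAC 2 weeks hearts, against 5.05, 2.96, 3.42 and 4.50 CPM in shams, so that 1 TAC library lay within the sham range. Its change of 0.68 (SE 0.21, edgeR adjusted p = 0.0255) lost the call without TAC replicate 1 or 2 or sham replicate 2 or 3, with adjusted p of 0.0554 to 0.0723. Rtl1, a retrotransposon-derived gene, averaged 0.788 ± 0.242 CPM at 2 weeks after TAC and 0.449 ± 0.115 CPM in shams, and Mirg 0.590 ± 0.135 and 0.338 ± 0.126 CPM (SD, n = 4 each; edgeR adjusted p = 0.0553 and 0.0974). At 8 weeks after TAC none of the 4 was called. Rian had 4.50, 7.03, 6.56 and 6.19 CPM in TAC 8 weeks hearts, against 8.95, 6.67, 5.49 and 4.49 CPM in shams, with overlapping groups (−0.08, SE 0.196, edgeR adjusted p = 0.794), and the value for Meg3 was −0.33 (SE 0.205, adjusted p = 0.246). For Rian the difference between the TAC effects was −1.16 (SE 0.297), with an edgeR adjusted p of 0.0575, which passed without TAC 8 weeks replicate 2 (0.0479) or TAC 2 weeks replicate 3 (0.0188) and in DESeq2 (0.00824).

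At the Kcnq1ot1 locus, the noncoding Kcnq1ot1 is read from the paternal copy and keeps Cdkn1c silent there. Kcnq1ot1 had 56.9, 72.3, 66.5 and 65.5 CPM in TAC 8 weeks hearts, against 154.8, 101.1, 114.9 and 162.2 CPM in shams. TAC and sham values lay well apart, the shams spread more widely, and the fall of 1.03 on the log2 scale (SE 0.143, edgeR adjusted p = 0.000313) was 2.04-fold. At 2 weeks Kcnq1ot1 averaged 79.1 ± 1.75 CPM with TAC and 101.1 ± 23.8 CPM in shams (SD, n = 4 each), a change of −0.35 that missed the threshold (SE 0.137, edgeR adjusted p = 0.0674) but passed in DESeq2 (0.0448). Cdkn1c, the cell cycle inhibitor p57, had 2.37, 3.75, 3.25 and 2.62 CPM in TAC 2 weeks hearts, against 3.97, 4.24, 5.36 and 3.48 CPM in shams. The groups overlapped slightly, and Cdkn1c was called lower, at −0.51 (SE 0.176, edgeR adjusted p = 0.0398). That call was lost without TAC replicate 1 or 4 or sham replicate 2 or 3 (adjusted p of 0.0712 to 0.122), and in a fit of all 24 libraries (0.0548). With library totals alone it was lost too (−0.11, edgeR adjusted p = 0.615). At 8 weeks Cdkn1c did not pass, with 3.50, 2.09, 2.38 and 1.89 CPM in TAC hearts, against 1.62, 2.57, 2.10 and 2.63 CPM in shams (0.13, SE 0.222, edgeR adjusted p = 0.692). Per length, Kcnq1ot1, a very long transcript, averaged 1.169 CPM per kb over the 6 groups and Cdkn1c 1.66 CPM per kb. Cdkn1c was the higher per length in 5 of the 6 groups, and Kcnq1ot1 in the 8-week-cohort shams, at 1.43 CPM per kb against 1.09 CPM per kb for Cdkn1c.

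Of the Peg3 locus, Peg3 itself, a zinc finger gene read from the paternal copy, did not pass against shams at either time. It had 12.6, 11.3, 10.8 and 14.5 CPM in TAC 2 weeks hearts, against 8.09, 8.59, 12.7 and 10.3 CPM in shams (0.31, SE 0.144, edgeR adjusted p = 0.116). The sham with 12.7 CPM, replicate 3, lay among the TAC values, and without it Peg3 passed at 0.45 (adjusted p = 0.0152). With library totals alone Peg3 also passed at 2 weeks, at 0.73 (edgeR adjusted p = 0.00133). At 8 weeks Peg3 averaged 7.86 ± 1.68 CPM with TAC and 7.90 ± 0.567 CPM in shams (SD, n = 4 each). Zim1, a zinc finger gene beside it, had 0.431, 0.386, 0.656 and 0.392 CPM in TAC 8 weeks hearts, against 1.206, 1.133, 0.849 and 1.38 CPM in shams. These values were low but did not overlap, and Zim1 fell by 1.28 on the log2 scale (SE 0.281, edgeR adjusted p = 0.00382).

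Snrpn, a spliceosome protein gene of the Prader-Willi region, was lower with TAC at both times. It had 5.40, 4.77, 5.55 and 4.77 CPM in TAC 2 weeks hearts, against 9.70, 10.4, 13.5 and 12.4 CPM in shams. At 8 weeks it had 6.66, 6.57, 5.66 and 5.20 CPM in TAC hearts, against 9.65, 9.98, 11.2 and 10.6 CPM in shams. At both times the highest TAC library was well below the lowest sham, with changes of −1.17 (SE 0.125, edgeR adjusted p = 1.8e-05) and −0.78 (SE 0.113, adjusted p = 0.000189). Snurf, which shares its transcript with Snrpn so that counts can be split between them, had 3 counts in all 4 TAC 2 weeks libraries together and 11 in their shams. At 8 weeks these sums were 3 with TAC and 15 in shams. Ndn, a growth suppressor of the same region, averaged 2.71 ± 0.260 CPM at 2 weeks after TAC and 1.99 ± 0.404 CPM in shams, and at 8 weeks 2.20 ± 0.685 CPM with TAC and 1.497 ± 0.265 CPM in shams (SD, n = 4 each; edgeR adjusted p = 0.0616 and 0.0827).

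On chromosome 6, Mest had the largest rise of the 27 genes at 2 weeks. This paternally read gene of the hydrolase fold had 6.65, 5.599, 5.07 and 9.71 CPM in TAC 2 weeks hearts, against 2.51, 2.40, 1.95 and 2.85 CPM in shams. Every TAC library was above every sham, replicate 4 most, and the change was 1.49 (SE 0.206, edgeR adjusted p = 0.000159), 2.81-fold. At 8 weeks Mest had 2.92, 4.02, 2.58 and 2.99 CPM with TAC, against 1.53, 2.27, 2.30 and 2.16 CPM in shams. The groups were again apart, by a smaller margin, at 0.61 (SE 0.189, edgeR adjusted p = 0.0263), and the call was lost without TAC replicate 2 (0.0772), sham replicate 1 (0.0738) or sham replicate 4 (0.0518). Copg2, a coat protein gene that overlaps the end of Mest, was called higher by 0.29 at 8 weeks (SE 0.0999, edgeR adjusted p = 0.0415). It lost that call without 5 of the 8 libraries, TAC replicate 1 or 3 or sham replicate 1, 3 or 4 (0.0843 to 0.126), and in DESeq2 (0.058). Across its overlapping values Copg2 ranged from 18.3 to 21.2 CPM with TAC and from 14.1 to 18.6 CPM in shams.

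Further along chromosome 6, Sgce, the sarcoglycan epsilon of the membrane complex that anchors dystrophin, was higher at both times. It averaged 7.38 ± 0.514 CPM at 2 weeks after TAC and 4.79 ± 1.107 CPM in shams, and at 8 weeks 5.90 ± 1.07 CPM with TAC and 4.08 ± 0.288 CPM in shams (SD, n = 4 each). The groups overlapped at neither time, with changes of 0.63 and 0.53 (edgeR adjusted p = 0.00524 and 0.0142). Its neighbour Peg10, a retrotransposon-derived gene read from the same promoter region, had 1.84, 1.89, 0.839 and 1.117 CPM in TAC 2 weeks hearts, against 0.752, 0.670, 0.698 and 0.703 CPM in shams. All 4 TAC values exceeded the tightly grouped shams, with a change of 1.00 (SE 0.28, edgeR adjusted p = 0.0137). At 8 weeks Peg10 ranged from 0.575 to 1.71 CPM with TAC and from 0.838 to 2.97 CPM in shams and was not called (−0.53, SE 0.407, adjusted p = 0.361). Asb4, which encodes an ankyrin repeat protein of a ubiquitin ligase, ranged from 0.643 to 1.35 CPM at 2 weeks after TAC and from 1.51 to 1.86 CPM in shams, and at 8 weeks from 0.861 to 1.47 CPM with TAC and from 1.206 to 2.35 CPM in shams. It was called lower at both times, at −0.71 and −0.75 (edgeR adjusted p = 0.0333 and 0.0383). Each of these calls rested on single libraries. That at 2 weeks was lost without TAC replicate 1 or 2 or sham replicate 1 or 4 (0.0641 to 0.0877), and that at 8 weeks without TAC replicate 1, 3 or 4 or sham replicate 2, 3 or 4 (0.0548 to 0.131). Both calls of Asb4 were also lost with library totals alone (−0.31 and −0.42, edgeR adjusted p = 0.306 and 0.174).

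Grb10 was higher at both times and showed little spread. It had 79.7, 69.0, 65.2 and 79.5 CPM in TAC 2 weeks hearts, against 50.6, 56.3, 61.2 and 63.5 CPM in shams, and 76.1, 77.7, 69.2 and 74.1 CPM in TAC 8 weeks hearts, against 48.5, 48.5, 52.3 and 47.5 CPM in shams. The groups were close at 2 weeks and far apart at 8 weeks. The changes were 0.35 (SE 0.104, edgeR adjusted p = 0.0197) and 0.59 (SE 0.0769, adjusted p = 8.4e-05), and the call at 2 weeks was lost without TAC replicate 1 or 4 or sham replicate 1 or 2 (0.0547 to 0.0702).

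On chromosome 2, Gnas was lower at 8 weeks. It had 139.3, 192.3, 124.1 and 156.8 CPM in TAC 8 weeks hearts, against 208.9, 221.1, 215.4 and 225.2 CPM in shams. TAC values varied widely yet stayed below the narrow band of shams, with a change of −0.51 (SE 0.113, edgeR adjusted p = 0.00423). Scaled to library totals alone, the change in Gnas was −0.17 and was not called (edgeR adjusted p = 0.252). Gnas gives rise to several imprinted transcripts, and the gene count does not separate them from the main one, which is read from both copies in most tissues. Nnat, which encodes the small membrane protein neuronatin, had 0.575, 0.579, 0.533 and 0.605 CPM in TAC 8 weeks hearts, against 1.58, 1.09, 1.35 and 1.32 CPM in shams. It sits in an intron of Blcap, and both were lower at 8 weeks without overlap, Nnat at −1.21 (SE 0.235, edgeR adjusted p = 0.00174) and Blcap at −0.51 (SE 0.0982, adjusted p = 0.00164). At 2 weeks Blcap, a gene named for its loss in bladder cancer, was lower too, at −0.38 (SE 0.0857, edgeR adjusted p = 0.00395). Scaled to library totals alone, Blcap stood at 0.04 at 2 weeks and at −0.17 at 8 weeks and was called at neither (edgeR adjusted p = 0.828 and 0.187). Nnat was not called at 2 weeks (0.12, SE 0.359, unadjusted p over 0.05), when it ranged from 0.681 to 0.893 CPM with TAC and from 0.281 to 1.25 CPM in shams.

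Of the genes that stand alone, Plagl1, whose zinc finger protein restrains the cell cycle, was called lower at 8 weeks and was not called at 2 weeks. It had 2.58, 2.61, 2.52 and 2.04 CPM in TAC 2 weeks hearts, against 2.00, 2.23, 3.20 and 1.93 CPM in shams (0.06, SE 0.185, edgeR adjusted p = 0.845). At 8 weeks it had 0.958, 1.159, 1.231 and 1.103 CPM with TAC, against 1.67, 1.96, 2.00 and 2.04 CPM in shams. The 8-week groups were clear of each other, at −0.77 (SE 0.189, edgeR adjusted p = 0.00714), but the difference between the TAC effects, −0.82 (SE 0.255), did not pass (adjusted p = 0.0966). With library totals alone the 8-week change in Plagl1 was −0.44 and missed the threshold (edgeR adjusted p = 0.0713). Zrsr1, a relative of a splice site recognition factor, was lower, at −0.53 at 2 weeks and −0.57 at 8 weeks (edgeR adjusted p = 0.00754 and 0.00287), without overlap. It averaged 4.18 ± 0.592 CPM with TAC and 6.05 ± 0.674 CPM in shams at 2 weeks, and 4.03 ± 0.259 CPM with TAC and 5.96 ± 0.505 CPM in shams at 8 weeks (SD, n = 4 each). Neither call of Zrsr1 held with library totals alone (−0.13 and −0.23, edgeR adjusted p = 0.488 and 0.141). Impact, which dampens the GCN2 arm of the amino acid stress response, and Slc38a4, an amino acid transporter, were called at neither time (adjusted p of 0.161 to 0.878). Zdbf2 had 18 counts in the TAC 2 weeks libraries together and 22 in their shams, and 17 in the TAC 8 weeks libraries and 24 in theirs.

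The TAC groups were then compared directly, a comparison chosen after the data had been seen. With 8 weeks against 2 weeks of TAC, 1 of the 27 genes was higher and 7 were lower, where all genes tested gave 20.1% called (10.8% higher, 9.29% lower). The genes lower at 8 weeks were H19, Igf2, Meg3, Rian, Peg3, Mest and Plagl1. H19 had 4.12, 2.55, 2.95 and 2.56 CPM 8 weeks after TAC, against 7.03, 5.79, 8.43 and 6.42 CPM 2 weeks after it, without overlap (−1.18, SE 0.165, edgeR adjusted p = 0.000617). Igf2 stood at −0.91, Mest at −1.11, Plagl1 at −1.10 and Peg3 at −0.64 (edgeR adjusted p = 0.000808, 0.00373, 0.001 and 0.00824), each without overlap. Values of 7 of the 27 genes did not overlap, against 23.5% of all genes, and 11 had an unadjusted p under 0.05, against 34.5%. Meg3 and Rian, at −0.68 and −0.73 (adjusted p = 0.0372 and 0.0229), overlapped. Meg3 lost its call without TAC 8 weeks replicate 1, 3 or 4 or TAC 2 weeks replicate 1, 2 or 4, and Rian without TAC 8 weeks replicate 1 or 4 or TAC 2 weeks replicate 2. With no filter on low counts both calls were lost as well (edgeR adjusted p = 0.0508 for Meg3 and 0.0559 for Rian). In a fit of all 24 libraries that of Meg3 was lost too (edgeR adjusted p = 0.0554). Impact, the gene called higher, at 0.33 (SE 0.0972, edgeR adjusted p = 0.03), lost its call without TAC 8 weeks replicate 1, 2 or 3 or TAC 2 weeks replicate 1, 2 or 4 and, scaled to library totals, stood at 0.15 (adjusted p = 0.385). Without TAC 8 weeks replicate 1 or TAC 2 weeks replicate 2, 5 of the 27 were called.

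**Figure D4:**
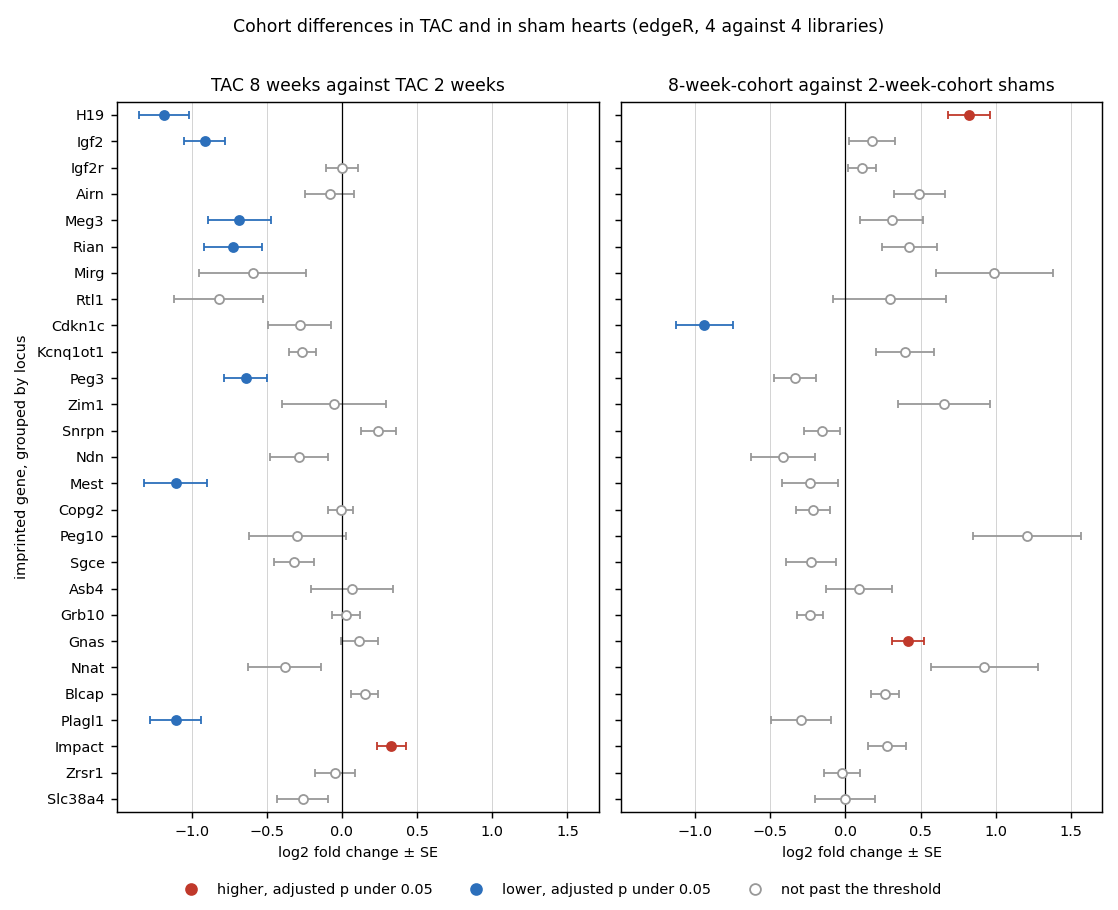
Log2 fold change with SE (whiskers) of the 27 tested imprinted genes between the cohorts, for TAC hearts at 8 against 2 weeks (left) and for 8-week-cohort against 2-week-cohort shams (right; edgeR, 4 against 4 libraries). H19 lies at −1.18 among TAC hearts and at 0.82 among shams, and filled points passed the threshold.

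The sham groups differed from each other in 3 of the 27 genes, with 2 higher and 1 lower in the 8-week-cohort shams, where 3.64% of all genes were called (2.2% higher, 1.44% lower). H19 had 8.95, 6.45, 7.19 and 9.46 CPM in 8-week-cohort shams, against 4.72, 4.41, 4.08 and 4.85 CPM in 2-week-cohort shams. These groups did not overlap, and H19 was 1.76-fold higher (0.82, SE 0.139, edgeR adjusted p = 0.0116), a call that held whichever single library was left out. Without 8-week-cohort replicate 1 or 3 or 2-week-cohort replicate 2 or 3, H19 was the 1 gene of the 27 still called, and without 2-week-cohort replicate 1 there were 6; over all genes these settings gave 57 to 1081 calls. Between the cohorts H19 thus moved in opposite directions, lower in the 8-week TAC hearts and higher in the 8-week-cohort shams. Igf2, by contrast, had overlapping shams at 9.93, 9.46, 7.54 and 8.56 CPM in the 8-week cohort, against 9.09, 5.97, 6.76 and 9.45 CPM in the 2-week cohort (0.17, SE 0.153, edgeR adjusted p = 0.536). Cdkn1c had 1.62, 2.57, 2.10 and 2.63 CPM in 8-week-cohort shams, against 3.97, 4.24, 5.36 and 3.48 CPM in 2-week-cohort shams. It was lower in every 8-week-cohort sham (−0.94, SE 0.188, edgeR adjusted p = 0.0205), but missed the threshold without 8-week-cohort replicate 1 or 3 or 2-week-cohort replicate 2 or 3 (0.0502 to 0.0747). Gnas was higher by 0.41 (SE 0.107, edgeR adjusted p = 0.0492). Among the fits that left out 1 library, it kept its call only without 2-week-cohort replicate 1, and it lost the call with library totals (0.1). Peg10, at 1.207 (SE 0.356, adjusted p = 0.0756), passed in DESeq2 (0.034). Values of 6 of the 27 genes did not overlap between the sham groups, against 12.9% of all genes, and 13 had an unadjusted p under 0.05, against 21.9%. The log2 ratio of H19 to Igf2 was −0.16 ± 0.29 in 8-week-cohort shams and −0.77 ± 0.25 in 2-week-cohort shams (SD, n = 4 each; exact permutation p = 0.0571, adjusted p = 0.143). The labels do not say how these cohorts differ in age, time after surgery or handling, and these cannot be told apart from the cohort.

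Running called none of the 27 genes, as it called 0% of all 13824 genes tested (edgeR; 9 genes in DESeq2), and none had an unadjusted p under 0.05, where 4.81% of all genes did. H19 had 5.44, 2.95, 5.10 and 9.16 CPM in running hearts, against 6.80, 7.61, 5.24 and 5.74 CPM in sedentary hearts, so that running replicates 2 and 4 lay outside the sedentary range on either side (−0.19, SE 0.29, adjusted p = 1). Igf2 had 10.6, 6.76, 10.1 and 13.8 CPM in running hearts, against 12.6, 9.23, 9.67 and 10.1 CPM in sedentary hearts (−0.03, SE 0.19, adjusted p = 1). Values overlapped between the groups for all 27 genes, while 2.95% of all genes had no overlap. Changes ran from −0.39 for Airn to 0.36 for Cdkn1c, with SEs of 0.186 and 0.203, and in DESeq2 none of the 27 was called either. These differences were within the spread between libraries.

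Across the 24 libraries, neighbouring genes were compared by their deviations from their group means, so that group differences did not enter. Of 13 neighbouring pairs listed, 10 had both genes tested. Meg3 and Rian deviated together, with Pearson's r of 0.833 and Spearman's rho of 0.843 (24 libraries, 100000 permutations within groups, p = 3e-05 and 1e-05, adjusted p = 0.0003 and 0.0001 over 10 pairs, 1e-05 being the smallest such a test can give). Without the 2 libraries farthest from the median, r was 0.805. Both genes lie on the same strand of chromosome 12, and whether they form a single long transcript cannot be read from gene counts. H19 and Igf2 had r of 0.615 and rho of 0.462 (permutation p = 0.022 and 0.037, adjusted p = 0.11 and 0.185), and r was 0.259 without running replicates 2 and 4, on which it rested. In the other 8 pairs r was at most 0.303 in size (adjusted p of 0.518 to 0.533). Library depth is shared by both genes of a pair, and its part was not tested.

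**Figure D5:**
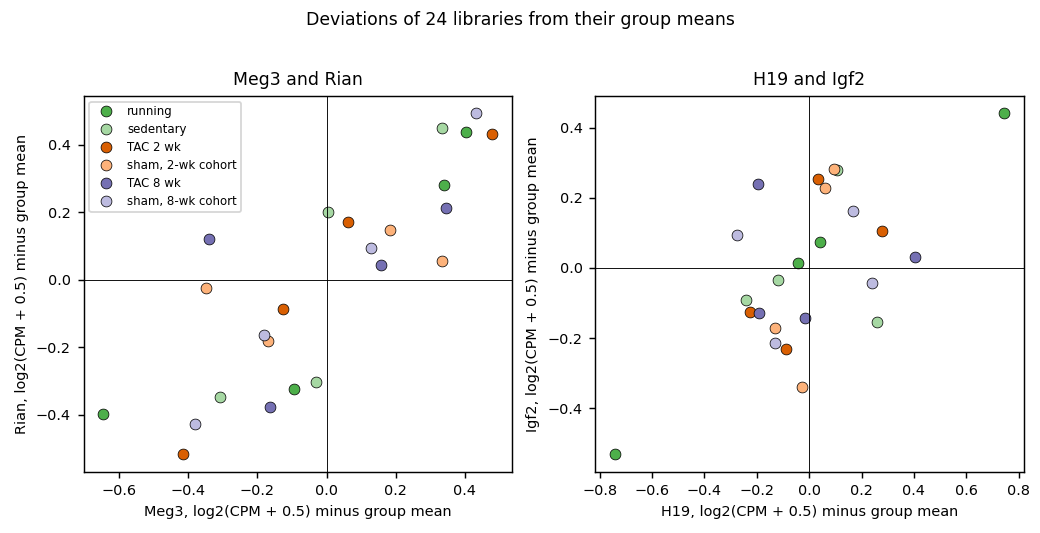
Deviations from the group mean, in log2(CPM + 0.5), of Meg3 and Rian (left) and of H19 and Igf2 (right), 1 point per library and coloured by group. Meg3 and Rian lie along a rising band (r 0.833), and the right panel is spread out by running replicates 2 and 4 (r 0.615 with them, 0.259 without).

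A list of 38 further imprinted genes, 23 of them tested, showed a mixed picture after TAC. At 2 weeks 4 were higher and 7 lower, and at 8 weeks 4 were higher and 6 lower (median log2 fold change −0.09 and 0.03), where all genes tested gave 17.1% higher and 16.1% lower at 2 weeks and 14.9% and 14.7% at 8 weeks. Atp10a, an ATPase gene of the flippase family, averaged 5.16 ± 1.095 CPM at 2 weeks after TAC and 1.98 ± 0.287 CPM in shams, without overlap (1.39, SE 0.178, edgeR adjusted p = 7.14e-05). Slc22a3, a cation transporter silenced by Airn in the placenta, averaged 1.03 ± 0.172 CPM with TAC and 2.71 ± 0.671 CPM in shams at 2 weeks, and 1.32 ± 0.274 CPM with TAC and 3.26 ± 0.732 CPM in shams at 8 weeks (−1.37 and −1.31, edgeR adjusted p = 0.000346 and 0.00044). Kcnq1, the potassium channel gene within which Kcnq1ot1 is read, was lower at both times, at −0.56 and −0.73 (edgeR adjusted p = 0.000235 and 0.000573). Ppp1r9a, which encodes an actin-binding scaffold, was lower, at −0.59 and −0.80 (adjusted p = 0.000198 and 5.67e-05). None of the 23 was called between the sham groups and none of 22 with running, while 3 and 2 had an unadjusted p under 0.05 (edgeR), against 21.9% and 4.81% of all genes. Between the TAC groups, Nap1l4 was higher and Inpp5f lower at 8 weeks (0.39 and −0.44, adjusted p = 0.0201 and 0.0111), where 10.8% and 9.29% of all genes were called.

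Igf2 acts through receptors and binding proteins that it shares with Igf1. Of 15 tested genes of the IGF axis, 9 were higher and 2 lower 2 weeks after TAC, and of 14 tested at 8 weeks 4 were higher and 3 lower. The shares over all genes were 17.1% higher and 16.1% lower at 2 weeks, and 14.9% and 14.7% at 8 weeks. Igf1, the other growth factor of the axis, averaged 37.0 ± 5.69 CPM at 2 weeks after TAC and 12.5 ± 2.89 CPM in shams (1.58, SE 0.159, edgeR adjusted p = 2.34e-05). At 8 weeks Igf1 averaged 16.2 ± 1.37 CPM with TAC and 8.33 ± 0.682 CPM in shams (0.96, SE 0.0993, adjusted p = 1.55e-05). Igfbp7, a secreted binding protein, was 3.44-fold and 3.13-fold higher (1.78 and 1.64, edgeR adjusted p = 3.06e-07 and 1.33e-07), and Igfbp6, which prefers Igf2, was 2.17-fold and 2.58-fold higher. Igfbp2, another binding protein, averaged 0.854 ± 0.0386 CPM at 2 weeks after TAC and 0.0494 ± 0.0337 CPM in shams (SD, n = 4 each). In these shams 1 CPM stood for 17.9 to 28.5 counts, so Igfbp2 passed the filter on low counts through its TAC libraries. Its place among the 9 higher genes therefore carries no weight of its own. Htra1, a protease, was lower at both times, at −0.62 and −0.46 (edgeR adjusted p = 0.000407 and 0.0036). The receptor Igf1r, through which Igf2 signals, was higher at 2 weeks by 0.39 (SE 0.106, edgeR adjusted p = 0.0122). Irs1, Insr and Pappa, an adaptor, the insulin receptor and a protease of binding proteins, were higher in the 8-week-cohort shams than in the 2-week-cohort shams (0.70, 0.39 and 0.90, edgeR adjusted p = 0.00614, 0.036 and 0.0423), where 2.2% of all genes were called higher. No gene of the axis passed the test for a difference between the TAC effects (edgeR; 4 of 16 had an unadjusted p under 0.05, against 19.1% of all genes) or with running (4 of 14, against 4.81%).

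Of 16 genes that read, write or protect imprints, 2 were higher and 1 lower 2 weeks after TAC, and 1 was higher and 3 lower 8 weeks after it. These 3 and 4 called genes stand beside shares over all genes of 33.2% and 29.6%, either direction. Zfp445, a zinc finger protein that guards imprints, averaged 15.5 ± 1.72 CPM at 2 weeks after TAC and 22.4 ± 2.92 CPM in shams, and at 8 weeks 15.5 ± 1.06 CPM with TAC and 20.9 ± 1.29 CPM in shams. It was lower, at −0.52 and −0.42 (edgeR adjusted p = 0.0023 and 0.00236), without overlap at either time. Calls in this list, the IGF axis and the further imprinted genes were not checked under other scalings or with libraries left out. Uhrf1, which brings the maintenance methyltransferase to newly copied DNA, was higher by 1.33 and 1.172 (adjusted p = 0.00357 and 0.00791). The methyltransferase Dnmt3a and the methylcytosine oxidase Tet2 were lower at 8 weeks, at −0.55 and −0.49 (adjusted p = 0.00341 and 0.00364), and Ehmt2, a histone methyltransferase, was higher at 2 weeks by 0.30 (adjusted p = 0.0412). Between the TAC groups Tet1 was lower at 8 weeks, at 2.99 ± 0.795 CPM against 7.90 ± 1.47 CPM at 2 weeks (−1.41, SE 0.185, edgeR adjusted p = 0.000534), as was Tet3 at −0.47 (adjusted p = 0.0303), where 9.29% of all genes were lower. None of the 16 was called between the shams, between the TAC effects or with running (edgeR), where 1, 3 and 1 had an unadjusted p under 0.05, against 21.9%, 19.1% and 4.81% of all genes.

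Markers of the cells of the heart moved with TAC as well, where TAC called 17.1% of all genes higher and 16.1% lower at 2 weeks and 14.9% and 14.7% at 8 weeks. Of 7 cardiomyocyte markers, 7 were lower at 2 weeks and 4 at 8 weeks, and their summed level ranged from 11202 to 13713 CPM at 2 weeks after TAC and from 20321 to 23824 CPM in shams. At 8 weeks it ranged from 14931 to 16330 CPM with TAC and from 21004 to 24017 CPM in shams. All 6 macrophage markers were higher at both times, at 156.0 to 193.2 CPM 2 weeks after TAC against 81.8 to 121.3 CPM in shams, and at 102.1 to 142.2 CPM 8 weeks after TAC against 58.7 to 77.7 CPM in shams. Of 7 resident fibroblast markers, 6 and 4 were higher, at 1050 to 1452 CPM 2 weeks after TAC against 843.0 to 1103 CPM in shams, and at 1061 to 1187 CPM 8 weeks after TAC against 727.2 to 968.6 CPM in shams. Schwann cell and neuronal markers summed to 1.46 to 2.25 CPM at 8 weeks after TAC and 3.45 to 3.77 CPM in shams, and at 2 weeks to 2.33 to 2.79 CPM with TAC and 2.88 to 4.04 CPM in shams. Of these 7 markers, 3 could be tested at 2 weeks, of which 1 was lower. Only 1 could be tested at 8 weeks, and it was lower. Of 6 endothelial markers 4 and 0 were higher at the 2 times, of 6 smooth muscle and pericyte markers 4 and 2, and of 5 blood markers 0 and 2. No atrial, mesothelial or adipocyte marker that could be tested was called against shams. Skeletal muscle markers were too low to test and summed to at most 1.149 CPM apart from 1 library of the 8-week-cohort shams at 8.30 CPM. Between the sham groups 4 of 6 macrophage markers and 1 of 7 resident fibroblast markers were lower in the 8-week cohort, against 1.44% of all genes. Between the TAC groups 5 of 6 macrophage and 4 of 6 smooth muscle and pericyte markers were lower at 8 weeks. So were 3 of 6 endothelial and 3 of 7 resident fibroblast markers, against 9.29% of all genes. No cardiomyocyte marker was called there, and 1 of 2 tested adipocyte markers was higher, against 10.8% of all genes. No marker of these lists was at 0 in all 24 libraries together, and single groups were not checked for this. In bulk tissue, fewer cells of a type and less RNA per cell cannot be told apart, and the part of these shifts in the results for the imprinted genes was not tested.

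Entries of the annotation class TEC, mostly single-exon transcripts of unsettled status, took 0.0857% to 0.109% of nonmitochondrial counts 8 weeks after TAC, against 0.13% to 0.168% in shams, and 0.12% to 0.146% 2 weeks after TAC, against 0.115% to 0.168% in shams. Airn and Kcnq1ot1, both unspliced for most of their length, were among the genes lower at 8 weeks, and the part of this shift in their values was not tested.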

How the data were processed

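Gene counts were analysed from total RNA of 24 mouse hearts, 4 in each of 6 groups taken from the sample labels. The authors deposited estimated counts per gene, as whole numbers; FastQC, Salmon and build mm9 are named in the submitters' processing notes, without versions. The sources used here do not state the strand setting or the gene annotation of the counting. A row naming no gene, at most 0.0% of a library, was left out, and all columns belonged to labelled samples. Library totals were 16802939 to 39512101 counts. The limit given for a count of 0 covers counting error only, while SDs and SEs hold the spread between libraries.

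Genes were filtered with filterByExpr, scaled with TMM factors and tested with edgeR 4.0.16 (R 4.3.3, limma 3.58.1; quasi-likelihood F test, robust, two-sided, no replicate block), with Benjamini-Hochberg adjustment over all genes tested and calls at adjusted p under 0.05. Each comparison used its own libraries only, except the difference between the TAC effects, fitted over 16. SEs were derived from the fold change and F. Permutation tests used SciPy 1.17.1 and NumPy 2.4.6 under Python 3.11.15, and figures matplotlib 3.10.9. Exon lengths, names and chromosomes came from an annotation of build GRCm38, so no positions were carried between builds. The log2 ratio of H19 to Igf2 used an offset of 0.5 counts, and correlations log2(CPM + 0.5).

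Alternatives were DESeq2 1.42.0, library totals, no filter, removal of mitochondrially encoded genes and all 24 libraries in 1 fit. Further ones were a replicate block, an offset of 5 counts for the ratio and leaving out each library. Single genes were followed under these alternatives only for the 27 tested imprinted genes, not for the other lists. The code was tested on simulated data. Same-numbered samples did not deviate together throughout (r from −0.244 to 0.433), so the numbers were not taken as pairs. All members are reported, and of the lists of other imprinted genes, the IGF axis and imprint maintenance up to 4 called genes with the smallest p per comparison, with Igf1r and Igfbp6 named in addition as the receptor and a binding protein of Igf2; cell type markers are given as counts and summed levels. The members and lists were chosen with earlier results of these data known.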

Additional observations from a re-analysis of the deposited data

Results flagged for a closer look

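Among 162 groups of 4 libraries (27 genes in 6 groups), 9 held a library set apart from the other 3 by Dixon's test, where chance gives about 1 in 20. In the sedentary group these were Airn in replicate 1, at 17.5 CPM, and Kcnq1ot1 in replicate 2, at 118 CPM, the lowest of its group. In running hearts it was Nnat in replicate 4, at 2.04 CPM. In TAC 2 weeks hearts Plagl1 was lowest in replicate 4, at 2.04 CPM, and in TAC 8 weeks hearts Zim1 was highest in replicate 3, at 0.656 CPM. In the 2-week-cohort shams the libraries set apart were replicate 4 for Zim1 (1.159 CPM), replicate 2 for Impact (16.7 CPM) and replicate 1 for Zrsr1 (7.05 CPM). In the 8-week-cohort shams it was replicate 3 for Mirg, at 1.199 CPM.

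The effect of TAC differed between 8 and 2 weeks for H19, at −2.01 on the log2 scale, and for Igf2, at −1.10, by the test of the difference itself (edgeR adjusted p = 0.000245 and 0.0219).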

How the results depend on the processing

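Counts of genes called moved by over 1.5 times in these cases. Scaled to library totals, 7609 genes were called at 2 weeks after TAC, against 4717 with TMM factors, and 6643 at 8 weeks, against 4032. Between the TAC effects 626 were called in DESeq2, 30 with library totals and 461 with the replicate block, against 196. Between the shams 876 were called in DESeq2 and 768 with no filter, against 497. With running 9 were called in DESeq2, 2 with no filter and 47 with the replicate block, against 0. Of the 27 imprinted genes, 5 differed between the TAC effects in DESeq2 (H19, Igf2, Rian, Meg3 and Kcnq1ot1), against 2. Scaled to library totals, Blcap at 2 weeks was 0.038 (edgeR adjusted p = 0.828) and Igf2r at 8 weeks 0.33 (adjusted p = 0.0145), both with the opposite sign; the median of all genes moved with this scaling. The correlation of H19 and Igf2 was 0.259 without 2 libraries; the cause was not tested.

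Leaving out 1 library at a time gave 3923 to 4575 genes and 8 to 13 of the 27 at 2 weeks after TAC, 2984 to 4204 and 13 to 15 at 8 weeks, 22 to 654 and 1 to 4 between the TAC effects, 1895 to 2661 and 5 to 9 between the TAC groups, 57 to 1081 and 1 to 6 between the shams, and 0 to 3 and 0 to 0 with running. The lowest and highest gene counts between the TAC effects were without 2-week-cohort sham replicates 2 and 1, and between the shams without 8-week-cohort replicate 3 and 2-week-cohort replicate 1; 3 with running were without running replicate 4. H19 kept its call in each surgical comparison under every setting run. Over the settings run, the log2 ratio of H19 to Igf2 differed by 0.41 to 0.58 at 2 weeks, −0.55 to −0.25 at 8 weeks, −0.42 to −0.11 between the TAC groups, 0.51 to 0.74 between the shams and −0.33 to −0.07 with running.

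With the replicate number as a block, 5359, 3571, 461, 2575, 484 and 47 genes, and 12, 15, 3, 8, 4 and 0 of the 27, were called at 2 weeks, at 8 weeks, between the TAC effects, between the TAC groups, between the shams and with running. At most 2 of 4 samples in a comparison correlated best with their own number. Under the block Rian passed between the TAC effects (edgeR adjusted p = 0.0489) and Airn between the shams (0.0351), and Copg2 at 8 weeks did not (0.0697).

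Low counts limit Mirg, Zim1, Rtl1, Nnat and the 8 untested genes most. Parental copies, isoforms and strands were not separated, and the 4 hearts a group leave small changes undetected.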
